A study of Mus musculus with 12 samples.

Results

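The 10 genes described here are markers of resident Kupffer cells, the macrophages that live in the liver sinusoids. They were chosen by name, with their values in KO mice on chow diet and in mice on CDAHFD already known, and they make up 10 of the 55357 genes in the count table. All 10 passed the filter on low counts, as did 17358 genes in all. RNA was sequenced from whole liver of male C57BL/6J mice whose Ppara gene, which encodes the lipid-sensing nuclear receptor PPARα, was flanked by loxP sites (PPARa fl/fl). KO mice also carried Albumin-Cre, a recombinase driven by a promoter active in hepatocytes, so the deletion is not aimed at Kupffer cells, and WT mice lacked it. From an age of 7 weeks the mice received chow or CDAHFD, a choline-deficient, amino acid-defined high fat diet, for 6 weeks and were killed at 13 weeks. There were 4 libraries of WT mice fed chow (WT chow), 3 of WT mice fed CDAHFD (WT CDAHFD), 2 of KO mice fed chow (KO chow) and 3 of KO mice fed CDAHFD (KO CDAHFD).

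Kupffer cells are seeded from embryonic precursors and renew themselves in the adult liver. They clear bacteria, aged red cells, complement-coated particles and dying cells from portal blood, and they depend on growth factor, Notch and BMP or TGF-β signals from stellate, endothelial and other cells of the sinusoid. When they are lost, monocytes can enter the liver, and in steatohepatitis many of the incoming cells become lipid-associated macrophages that express Trem2 and Gpnmb. Timd4 is known as a marker that recruited macrophages gain late, whereas Csf1r and Adgre1, which encodes F4/80, are carried by most tissue macrophages. The names in the set are therefore of unequal specificity, and the data were read gene by gene.

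The measurements were read counts per gene, given below as CPM, the count of a gene scaled to a common library size, after TMM scaling of library sizes. Total counts ran from 29906785 to 43551003 per library, and the TMM factors from 0.7292 to 1.258. Ppara itself was measured at 96.2 to 238 CPM in WT chow, at 14.4 and 38.7 CPM in KO chow, at 59.5 to 75.5 CPM in WT CDAHFD and at 20.7 to 51.9 CPM in KO CDAHFD. Counts over the whole gene include reads outside the deleted part, so they check the labels only in part. One library stood apart for the resident markers. KO CDAHFD replicate 3 was the lowest of its group in 8 of the 10 genes, while 40.7% of all genes tested were lowest there. It is also 1 of 4 libraries with over 10 CPM of the clock gene Dbp, together with WT chow replicates 3 and 4 and KO chow replicate 2, and collection times are not given in the sources used here. Results that rest on this library are given with and without it.

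Promoter sequence is shown for 4 of the markers because they separate the patterns described below: Timd4 and Cd163 were the members with the largest falls on CDAHFD, and Marco and Vsig4 rose in KO mice on chow diet. The RefSeq promoter table for GRCm38.p6 covers 250 bases before to 50 bases after each gene's start and holds 8 of the 10 members, in 9 promoters. Searched on both strands, GAGGAA, a core recognised by the myeloid factor PU.1, was found in 28.3% of the 32851 promoters in the table and in those of 3 members, and AGGTCA, the core of many nuclear receptor sites, in 16.3% of all and in those of 3 members. Capitals mark these letters in the sequences, which run 5′ to 3′ on the strand of the gene.
Timd4, chr11:46810549-46810848, plus strand: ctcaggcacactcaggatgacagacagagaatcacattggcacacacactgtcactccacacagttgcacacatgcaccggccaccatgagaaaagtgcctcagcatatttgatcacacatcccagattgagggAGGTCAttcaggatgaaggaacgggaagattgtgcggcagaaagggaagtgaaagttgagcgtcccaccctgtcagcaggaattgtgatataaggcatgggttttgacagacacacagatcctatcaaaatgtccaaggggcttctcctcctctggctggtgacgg
Cd163, chr6:124304401-124304700, plus strand: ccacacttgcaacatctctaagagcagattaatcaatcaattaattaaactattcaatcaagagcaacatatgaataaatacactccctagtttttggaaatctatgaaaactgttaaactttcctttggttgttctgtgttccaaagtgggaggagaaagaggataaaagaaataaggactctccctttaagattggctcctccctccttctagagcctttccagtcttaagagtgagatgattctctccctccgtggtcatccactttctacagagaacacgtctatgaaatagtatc
Marco, chr1:120504975-120505274, minus strand: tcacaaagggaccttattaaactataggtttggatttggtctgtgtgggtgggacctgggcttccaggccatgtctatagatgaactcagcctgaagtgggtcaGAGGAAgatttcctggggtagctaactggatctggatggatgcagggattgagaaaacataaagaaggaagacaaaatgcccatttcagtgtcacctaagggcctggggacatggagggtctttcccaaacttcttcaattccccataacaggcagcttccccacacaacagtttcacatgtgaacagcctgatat
Vsig4, chrX:96293389-96293688, minus strand: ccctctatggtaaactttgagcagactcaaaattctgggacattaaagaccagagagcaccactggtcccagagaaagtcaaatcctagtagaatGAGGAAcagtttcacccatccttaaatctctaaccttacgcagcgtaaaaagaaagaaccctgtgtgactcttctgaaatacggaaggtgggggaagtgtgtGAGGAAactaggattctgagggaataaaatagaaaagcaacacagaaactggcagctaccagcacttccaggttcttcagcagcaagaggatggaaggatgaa
Timd4 held AGGTCA 116 bases before its start. Marco held GAGGAA 146 bases before its start and Vsig4 held it at 155 and 53 bases, while the Cd163 window held neither word. Among the members not printed, Clec4f and C6 held AGGTCA, Cd5l held GAGGAA and Folr2 held neither. These are matches of letters, and binding was not measured.

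Per kilobase of exon, the order of the genes in WT chow was led by C6 with 155 CPM per kb ± 50.03 (SD, n = 4). Cd5l (63.7 ± 19.2) and Clec4f (57.7 ± 12.6) followed and differed by less than their spread. Vsig4 stood at 20.4 ± 4.01 and Csf1r at 11.0 ± 3.33. Adgre1 (7.96 ± 2.60) and Marco (7.94 ± 4.14) could not be separated, and Timd4 (4.48 ± 1.16) and Cd163 (3.66 ± 0.845) differed by less than their spread as well. Folr2 was the least abundant, with 2.02 ± 0.464 CPM per kb. All 10 genes were thus detected in the control livers, at levels that spanned the range from a liver-wide complement gene to a rare receptor. In KO chow the order was different, with Cd5l at 192 CPM per kb ± 39.4 (SD, n = 2) and C6 at 85.1 ± 17.96.

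On CDAHFD the RNA of the receptors Timd4 and Cd163 fell 23.7-fold and 21.2-fold in WT livers, while that of the receptors shared by most macrophages, Csf1r and Adgre1, rose. Relative to WT chow, 3 of the 10 members rose (Cd5l, Csf1r and Adgre1), beside 26.1% of all genes tested that rose, and 3 fell (Timd4, C6 and Cd163), beside 25% that fell. Clec4f, Vsig4, Marco and Folr2 did not pass the test. The median log2 fold change of the members was -0.30, beside -0.05 for all genes tested. Calls are by edgeR's quasi-likelihood test and Benjamini-Hochberg adjustment at an adjusted p under 0.05. The libraries of KO chow and of both CDAHFD groups also entered the contrast by which the members were chosen, so these calls are not independent of that choice.

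In KO mice on chow diet, more of the resident markers rose than fell. Against WT chow, 5 members rose (Vsig4, Cd5l, Marco, Csf1r and Adgre1), beside 22% of all genes, and 2 fell (C6 and Cd163), beside 17%. The median of the members was 0.83 on the log2 scale, beside 0.00 for all genes tested. This comparison rests on 2 KO libraries, and without KO chow replicate 2 there were 3 calls, all of them higher (Cd5l, Marco and Adgre1), beside 17.7% of all genes that rose and 12.9% that fell in that fit. In KO mice on CDAHFD, 3 members rose, beside 26.9% of all genes, and 3 fell, beside 25.4%, by name those called in WT CDAHFD. Their median was -0.12, beside -0.04. Without KO CDAHFD replicate 3 there were 8 calls, with 5 higher beside 24.8% of all genes and 3 lower beside 22%, Vsig4 and Marco being the additions. The 6 others were then at log2 fold changes of -2.30 for Timd4, -2.61 for Cd163, 1.25 for Cd5l, -1.03 for C6, 1.35 for Csf1r and 0.95 for Adgre1. With library size as the only scaling, the median of all genes moved to 0.51, 0.40 and 0.57 in WT CDAHFD, KO chow and KO CDAHFD, and the share of calls that were higher went from 51%, 56.4% and 51.4% to 88.6%, 86% and 89.9%. Under that scaling C6 was no longer called in WT CDAHFD (log2 -0.18, adjusted p = 0.507) or KO chow (log2 -0.47, adjusted p = 0.153), nor Cd163 in KO chow (log2 -1.33, adjusted p = 0.056). Calls gained under it were Vsig4 in WT CDAHFD (log2 0.87, adjusted p = 0.0169) and KO CDAHFD (log2 0.81, adjusted p = 0.0232) and Clec4f in KO chow (log2 1.05, adjusted p = 0.0397). All 3 comparisons use the same 4 WT chow libraries and are set side by side here without a measure of likeness.

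**Figure D1:**
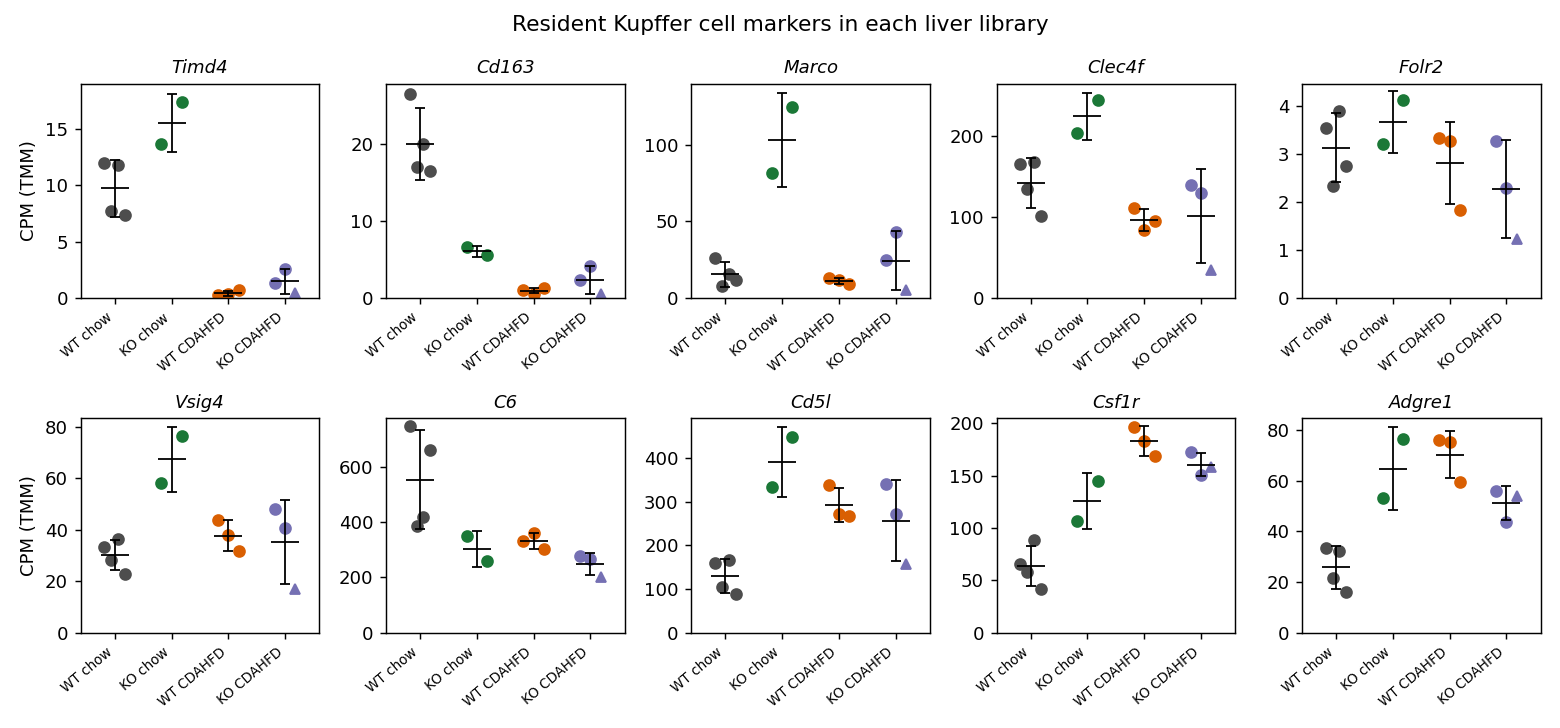
CPM of each of the 10 markers (y axis, from 0) in every library of the 4 groups (x axis), with the group mean and SD as black bars; the triangle is KO CDAHFD replicate 3. Timd4 lay between 0.246 and 0.677 CPM in WT CDAHFD and between 7.38 and 12.03 CPM in WT chow, while Csf1r was higher in every CDAHFD library than in every chow library.

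Timd4 encodes TIM-4, a receptor for phosphatidylserine through which macrophages bind dying cells. The 4 WT chow libraries held 12.03, 7.71, 11.8 and 7.38 CPM and the 2 KO chow libraries 13.7 and 17.4 CPM. In WT CDAHFD the values were 0.246, 0.311 and 0.677 CPM, from 12, 16 and 31 reads, and in KO CDAHFD 1.36, 2.59 and 0.428 CPM. Both CDAHFD groups lay wholly below both chow groups, KO chow lay wholly above WT chow, and the CDAHFD groups overlapped each other. Timd4 fell 23.7-fold in WT CDAHFD (log2 fold change -4.57, SE 0.53, adjusted p = 1.42e-05) and 6.72-fold in KO CDAHFD (log2 -2.75, SE 0.46, adjusted p = 0.000295) by edgeR's quasi-likelihood test and Benjamini-Hochberg adjustment. In KO chow the log2 difference was 0.67 (SE 0.45, adjusted p = 0.252), which did not pass. In bulk liver, fewer cells of a type and less RNA per cell cannot be told apart, here and for every gene below.

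Cd163 encodes the scavenger receptor for haemoglobin bound to haptoglobin. Its values were 26.5, 16.97, 19.9 and 16.5 CPM in WT chow, 6.58 and 5.53 CPM in KO chow, 1.07, 0.524 and 1.25 CPM in WT CDAHFD and 2.38, 4.17 and 0.499 CPM in KO CDAHFD. The 3 other groups all lay below WT chow without overlap, and KO chow lay between WT chow and the CDAHFD livers. Cd163 fell 21.2-fold in WT CDAHFD (log2 -4.40, SE 0.54, adjusted p = 2.45e-05, edgeR), 8.55-fold in KO CDAHFD (log2 -3.10, SE 0.50, adjusted p = 0.000209) and 3.30-fold in KO chow (log2 -1.72, SE 0.54, adjusted p = 0.0228). The call in KO chow was lost without either KO chow library, with adjusted p of 0.0993 without replicate 1 and 0.124 without replicate 2. Timd4 and Cd163 therefore both fell on CDAHFD, but in KO chow Cd163 fell and Timd4 was measured at 13.7 and 17.4 CPM, above every WT chow library.

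Marco encodes a class A scavenger receptor that binds bacteria and particles. It was measured at 26.3, 7.90, 15.5 and 11.4 CPM in WT chow and at 81.7 and 125 CPM in KO chow, with every KO chow library above every other library. WT CDAHFD gave 12.95, 11.8 and 9.05 CPM, and KO CDAHFD gave 24.5, 43.3 and 5.04 CPM. Marco rose 6.76-fold in KO chow (log2 2.76, SE 0.58, adjusted p = 0.00231, edgeR). The log2 differences were -0.44 in WT CDAHFD (SE 0.54, adjusted p = 0.524) and, in KO CDAHFD, 0.67 (SE 0.53, adjusted p = 0.313). Without KO CDAHFD replicate 3 the latter became 1.15, with an adjusted p of 0.0262.

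Clec4f encodes a C-type lectin that in mice is found on Kupffer cells and hardly on other macrophages. The values were 166, 135, 168 and 102 CPM in WT chow, 204 and 246 CPM in KO chow, 111, 84.5 and 94.8 CPM in WT CDAHFD and 139.9, 130.2 and 34.1 CPM in KO CDAHFD. KO chow lay wholly above the other 3 groups, and those 3 overlapped. No comparison with WT chow passed the test, with a log2 difference of -0.56 (SE 0.36, adjusted p = 0.212, edgeR) in WT CDAHFD, 0.66 (SE 0.39, adjusted p = 0.208) in KO chow and -0.49 (SE 0.36, adjusted p = 0.27) in KO CDAHFD. Fitted without KO CDAHFD replicate 3, the first 2 passed, with adjusted p of 0.0161 and 0.0148 and log2 differences of -0.56 and 0.66, and KO CDAHFD stood at -0.08. They also passed in fits of only the groups compared (adjusted p = 0.0396 and 0.0413), the WT CDAHFD difference passed without the 4 libraries high in Dbp (log2 -0.64, adjusted p = 0.00465), and the KO chow difference passed with every gene with a count kept (adjusted p = 0.0479). Over the 20 alternatives the log2 difference ran from -0.71 to -0.01 in WT CDAHFD and from 0.34 to 1.05 in KO chow. Neither passed in most of them. Clec4f RNA was at 84.5 CPM or more in 11 of the 12 libraries, beside 102 to 168 CPM in WT chow. Timd4 and Cd163 were at 4.17 CPM or less in every CDAHFD library, beside 7.38 to 12.03 and 16.5 to 26.5 CPM in WT chow.

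Folr2 encodes folate receptor β. It ranged from 2.33 to 3.90 CPM in WT chow, from 3.21 to 4.12 in KO chow, from 1.84 to 3.34 in WT CDAHFD and from 1.24 to 3.27 in KO CDAHFD, and all groups overlapped. The log2 differences from WT chow lay between -0.46 and 0.23 and none passed the test. In these non-directional libraries 975 exon bases of Folr2 are shared with Gm10602 on the opposite strand, which held 29.3% as many counts, so part of its signal may belong to that gene.

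Vsig4 encodes the complement receptor CRIg, which captures particles coated with C3 fragments. It was measured at 33.5, 28.3, 36.4 and 22.8 CPM in WT chow and at 58.3 and 76.4 CPM in KO chow, which lay above all other libraries. WT CDAHFD gave 43.7, 37.8 and 31.7 CPM and KO CDAHFD 48.1, 40.8 and 16.9 CPM. Vsig4 rose 2.22-fold in KO chow (log2 1.15, SE 0.31, adjusted p = 0.0102, edgeR). The call was lost without KO chow replicate 2 (adjusted p = 0.0898). On CDAHFD the log2 differences were 0.32 (SE 0.28, adjusted p = 0.367) in WT and 0.22 (SE 0.28, adjusted p = 0.538) in KO mice, and the latter became 0.56 with an adjusted p of 0.0302 without KO CDAHFD replicate 3.

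Cd5l encodes AIM, a protein that macrophages secrete and that is known as a target of the sterol-sensing LXR receptors. WT chow held 159.8, 105, 166 and 88.3 CPM and KO chow 335 and 448 CPM. WT CDAHFD held 338, 272 and 267 CPM and KO CDAHFD 342, 272 and 156 CPM, so that only KO CDAHFD replicate 3 lay within the range of WT chow. Cd5l rose 3.02-fold in KO chow (log2 1.59, SE 0.29, adjusted p = 0.000873, edgeR), 2.25-fold in WT CDAHFD (log2 1.17, SE 0.26, adjusted p = 0.00254) and 1.98-fold in KO CDAHFD (log2 0.98, SE 0.26, adjusted p = 0.00714). These 3 calls remained under each alternative tried.

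C6 encodes a component of the membrane attack complex of complement. It was the most variable of the abundant members among controls, with 747, 386, 418 and 659 CPM in WT chow. KO chow held 348 and 257 CPM, WT CDAHFD 332, 361 and 302 CPM and KO CDAHFD 275, 266 and 202 CPM, all below the lowest WT chow library. C6 fell 1.67-fold in WT CDAHFD (log2 -0.74, SE 0.22, adjusted p = 0.015, edgeR), 1.83-fold in KO chow (log2 -0.87, SE 0.26, adjusted p = 0.0181) and 2.23-fold in KO CDAHFD (log2 -1.16, SE 0.23, adjusted p = 0.000912). Hepatocytes make most complement components, and 7 hepatocyte genes were tested beside C6. Their summed level was 107800 to 124900 CPM in WT chow livers, 81460 and 89720 CPM in those of KO chow, 50760 to 60250 CPM in those of WT CDAHFD and 46080 to 62470 CPM in those of KO CDAHFD, and 7, 5 and 7 of them fell in WT CDAHFD, KO chow and KO CDAHFD. Their part in the C6 result was not tested. The C6 call in WT CDAHFD was lost without WT CDAHFD replicate 3 (adjusted p = 0.0582) and that in KO chow without KO chow replicate 2 (adjusted p = 0.155), without the 4 libraries high in Dbp (adjusted p = 0.126) and in the fit of only the groups compared (adjusted p = 0.0647).

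Csf1r encodes the receptor for the macrophage growth factors CSF1 and IL-34. Its values were 65.9, 58.0, 88.3 and 42.1 CPM in WT chow, 107 and 145 CPM in KO chow, 197, 183 and 169 CPM in WT CDAHFD and 172, 150.4 and 159 CPM in KO CDAHFD. WT chow, KO chow and the CDAHFD groups followed each other without overlap, and the CDAHFD groups overlapped. Csf1r rose 2.88-fold in WT CDAHFD (log2 1.52, SE 0.20, adjusted p = 3.61e-05, edgeR), 1.98-fold in KO chow (log2 0.98, SE 0.22, adjusted p = 0.00323) and 2.52-fold in KO CDAHFD (log2 1.34, SE 0.20, adjusted p = 9.84e-05). Without KO chow replicate 2 the KO chow call was lost at an adjusted p of 0.0525. Csf1r shares 873 exon bases with Hmgxb3 on the other strand, which held 12.3% as many counts and ran from 12.5 to 23.4 CPM over the 12 libraries.

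Adgre1 was measured at 33.3, 21.7, 32.2 and 15.9 CPM in WT chow, 53.1 and 76.5 CPM in KO chow, 76.0, 75.4 and 59.6 CPM in WT CDAHFD and 56.0, 43.7 and 54.1 CPM in KO CDAHFD. Every library of the 3 other groups lay above every WT chow library. It rose 2.72-fold in WT CDAHFD (log2 1.45, SE 0.23, adjusted p = 0.000178, edgeR), 2.51-fold in KO chow (log2 1.33, SE 0.25, adjusted p = 0.00109) and 1.99-fold in KO CDAHFD (log2 0.99, SE 0.23, adjusted p = 0.00265).

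**Figure D2:**
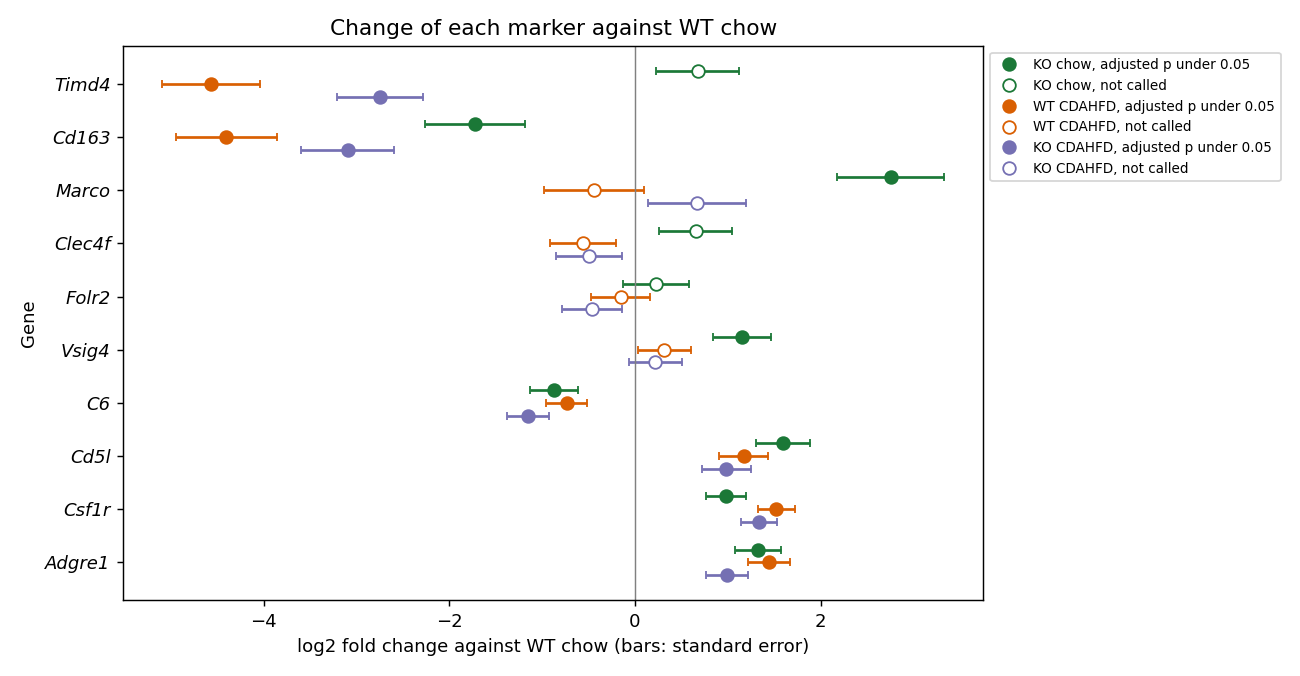
Fitted log2 fold change of each marker against WT chow (x axis) with its standard error as bars, for KO chow, WT CDAHFD and KO CDAHFD; filled points passed an adjusted p under 0.05 and open points did not. Timd4 and Cd163 lie at -2.75 or lower in both CDAHFD groups, Marco at 2.76 in KO chow, and Cd5l, Csf1r and Adgre1 to the right of 0 in all 3.

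Between the CDAHFD groups, no member was called by edgeR, beside 0.357% of all genes tested called in either direction. At an unadjusted p under 0.05 there were 2 members, Timd4 and Cd163. The share of all genes at that unadjusted cut was not counted, so nothing is read from this number. Timd4 was 3.53-fold higher in KO CDAHFD than in WT CDAHFD (log2 1.82, SE 0.55) with an adjusted p of 0.293 by edgeR, and it was called, as 1 of the 10 members, by DESeq2 (adjusted p = 0.0221), beside 1.41% of all genes, and when every gene with a count was kept (adjusted p = 0.00824), beside 0.714%. Cd163 stood at a log2 difference of 1.31 (SE 0.54, adjusted p = 0.506, edgeR) and Marco at 1.11 (SE 0.57, adjusted p = 0.632). For each of the 3, KO CDAHFD replicates 1 and 2 lay above every WT CDAHFD library and replicate 3 lay within or below their range. Without replicate 3 the log2 differences were 2.26 for Timd4 (adjusted p = 0.0689), 1.79 for Cd163 (adjusted p = 0.0773) and 1.59 for Marco (adjusted p = 0.243). C6 and Adgre1 were lower in all 3 KO CDAHFD libraries than in all 3 WT CDAHFD libraries, at log2 differences of -0.42 and -0.46, and did not pass. The share of all genes whose libraries separate between the CDAHFD groups was not counted.

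Within KO CDAHFD, replicate 3 differed from the other 2 libraries by gene. Relative to their mean it held 14.9% of Marco, 15.3% of Cd163, 21.7% of Timd4 and 25.3% of Clec4f. Vsig4 stood at 38.1%, Folr2 at 44.4%, Cd5l at 50.9% and C6 at 74.8%. Csf1r and Adgre1 were at 98.3% and 109%. The summed level of 17 general macrophage genes was 2475 CPM there and 2609 and 2651 CPM in replicates 1 and 2. In this library Timd4, Cd163, Marco and Clec4f were low beside a sum of general macrophage genes that differed little from the other libraries. The sum is weighted to its abundant genes, and single genes of it went both ways. C1qa, C1qc and Aif1 were lowest there, at 105, 101 and 9.54 CPM, with group highs of 162, 150 and 14.9 CPM. Lyz2 was highest there, at 853 CPM, with a group low of 765 CPM. The library also differed in clock gene phase, and the part of phase in its low levels was not tested. In group comparisons fitted with a clock gene covariate, each member kept its sign and its call, or lack of one. Those fits compare groups and do not address why replicate 3 was low within its own. Of the other libraries with over 10 CPM of Dbp, KO chow replicate 2 held the highest level of Timd4, Marco, Clec4f and Vsig4 of all 12. WT chow replicates 3 and 4 held the highest, only narrowly, and the lowest Clec4f of their group. These libraries belong to other groups, and nothing about phase is read from them.

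**Figure D3:**
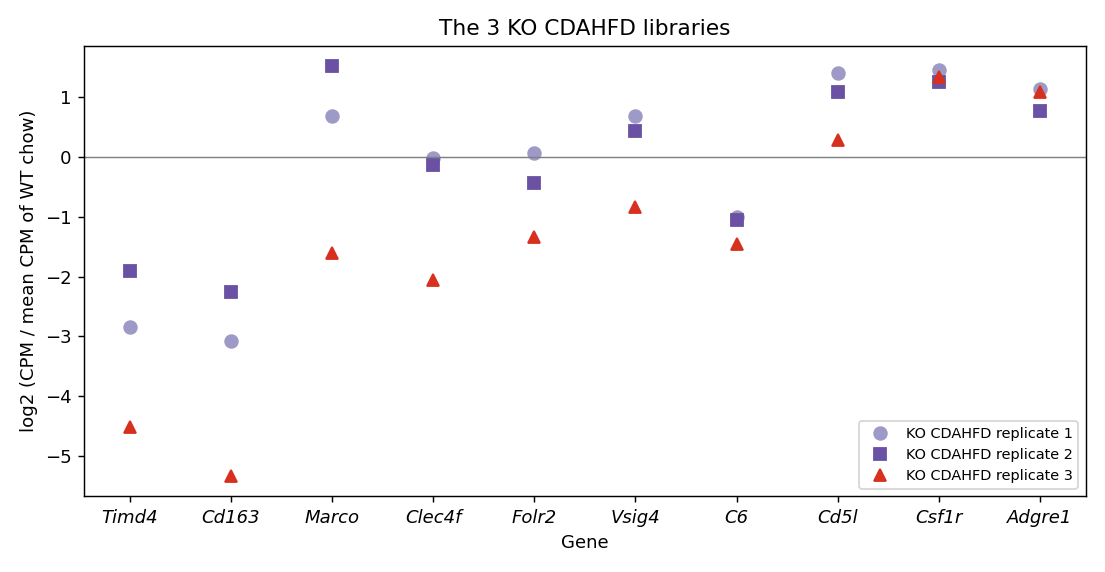
log2 of the CPM of each marker in each of the 3 KO CDAHFD libraries over the mean CPM of WT chow (y axis). Replicate 3 (red triangles) lies below the other libraries for the 8 genes from Timd4 to Cd5l and with them for Csf1r and Adgre1.

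The contrast by which the members were chosen sets KO mice on chow diet beside mice on CDAHFD, and it is given as a description without a test. In WT CDAHFD, 5 members (Timd4, Cd163, Marco, Clec4f and Vsig4) were lower than KO chow in every library, beside 24.5% of all genes, and Csf1r alone was higher in every library, beside 24.1%. The fitted log2 differences were -5.24 for Timd4, -3.20 for Marco, -2.68 for Cd163, -1.22 for Clec4f and -0.84 for Vsig4. In KO CDAHFD those same 5 were lower in every library, beside 19.2%, and Csf1r was higher, beside 19.9%. Their log2 differences were -3.42 for Timd4, -2.09 for Marco, -1.37 for Cd163, -1.15 for Clec4f and -0.93 for Vsig4. Without KO CDAHFD replicate 3 these became -2.98, -1.61, -0.89, -0.74 and -0.60. The other 5 members lay closer to 0, from -0.42 for Cd5l to 0.54 for Csf1r in WT CDAHFD and from -0.69 for Folr2 to 0.35 for Csf1r in KO CDAHFD. Beside WT chow, both KO chow libraries held Timd4, Marco, Clec4f and Vsig4 above every WT chow library. The share of all genes with that separation was not counted, and Timd4 and Clec4f did not pass the test in KO chow. Mice on CDAHFD carried these genes at or below the levels of WT chow, except for Vsig4 and Marco, whose CDAHFD libraries also reached above it.

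The resident markers were also set against general macrophage RNA. The 17 general macrophage genes, among them Cd68, Lyz2 and the C1q genes, summed to 414 to 621 CPM in WT chow livers. The sum was 1468 and 1638 CPM in those of KO chow, 2458 to 3267 CPM in those of WT CDAHFD and 2475 to 2651 CPM in those of KO CDAHFD. The members are not part of this sum. Relative to it, Timd4 was 1.55% to 1.98% in WT chow, 0.837% and 1.18% in KO chow and 0.00753% to 0.0276% in WT CDAHFD. Clec4f was 21.4% to 32.5% in WT chow, 12.5% and 16.7% in KO chow, and on CDAHFD 2.79% to 3.85% in WT and 1.38% to 5.36% in KO mice. Adgre1, whose own RNA rose, went from 3.34% to 5.47% in WT chow to between 2.33% and 2.49% in WT CDAHFD. All 10 members had a lower ratio to this sum in every WT CDAHFD library than in every WT chow library, beside 81.6% of all genes tested, and the same was true in KO CDAHFD, beside 78.5%. In KO chow it was true of 5 members, beside 73.3%, and Marco had a higher ratio, at 4.99% and 8.49% against 1.91% to 4.32%. The median log2 difference of the ratio was -2.72 in WT CDAHFD, -2.52 in KO CDAHFD and -0.71 in KO chow. The sum in the denominator itself rose and most genes of the liver had this direction, so the counts are no result about the resident markers.

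**Figure D4:**
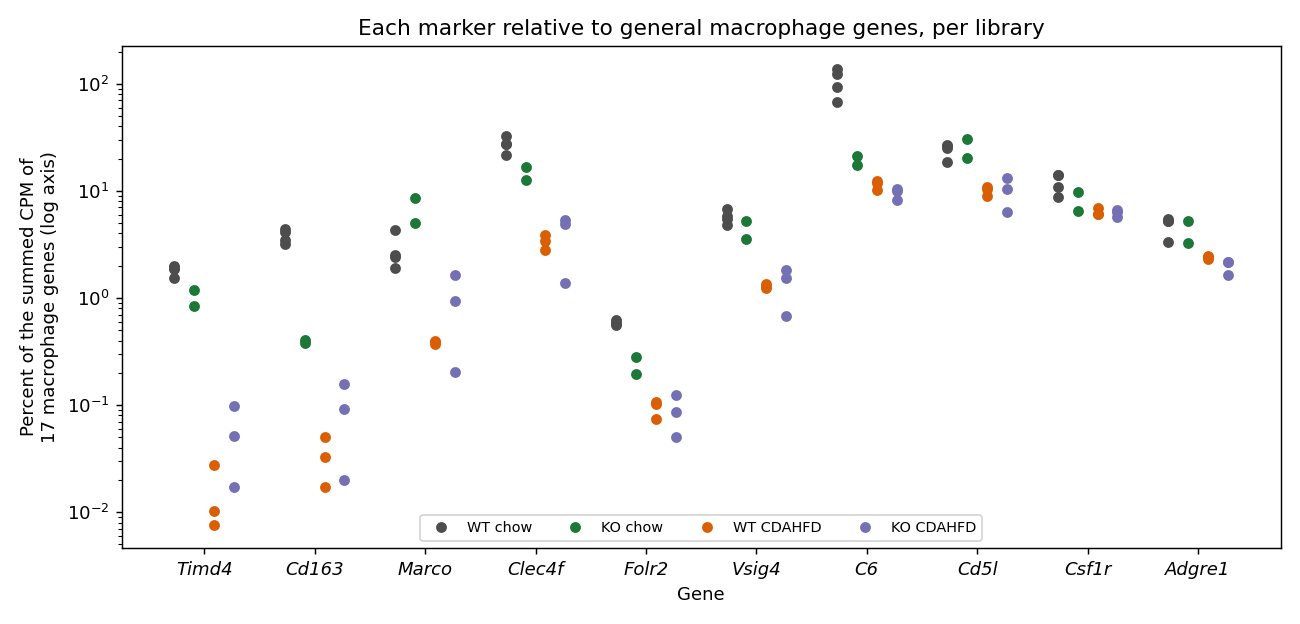
CPM of each marker as a percent of the summed CPM of 17 general macrophage genes (y axis, log scale) in every library, coloured by group. WT chow lies above both CDAHFD groups for all 10 genes, by the widest gap for Timd4 and Cd163, and KO chow lies wholly below WT chow for 5 genes, overlaps it for 4 and lies above it for Marco.

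All 8 monocyte genes tested rose in each of the 3 groups. Ccr2, the chemokine receptor by which monocytes leave the marrow, went from 0.734 to 4.66 CPM in WT chow to 18.1 and 23.1 CPM in KO chow and 29.9 to 41.8 CPM in WT CDAHFD (log2 3.97, SE 0.38, adjusted p = 2.59e-06, edgeR), and Cx3cr1 rose by 4.98 on the log2 scale. Ly6c2 rose by 2.04. Of the general macrophage genes 16 of 17 rose in each group. Cd68 was measured at 7.02 to 12.5 CPM in WT chow, 34.4 and 46.3 CPM in KO chow and 82.2 to 108 in WT CDAHFD.

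All 11 lipid-associated macrophage genes tested rose in both CDAHFD groups, and 10 of 11 did in KO chow, with medians of 5.45, 5.42 and 3.70 on the log2 scale in WT CDAHFD, KO CDAHFD and KO chow. Trem2, a lipid receptor, went from 0.321 to 0.854 CPM in WT chow to 17.9 and 19.8 CPM in KO chow, and on CDAHFD it reached 57.1 to 73.1 CPM in WT and 61.9 to 71.4 CPM in KO mice. Gpnmb, a glycoprotein of lipid-laden macrophages, went from 0.0917 to 0.349 CPM in WT chow to 559 to 796 CPM in WT CDAHFD. KO CDAHFD replicate 3, low in resident markers, held 61.9 CPM of Trem2 and 676 CPM of Gpnmb beside 656.7 and 560.2 CPM of Gpnmb in the other 2 libraries.

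Other genes known from Kupffer cells were mixed, as the members were. Of 13 tested, 7 rose and 2 fell in WT CDAHFD, 4 rose in KO chow, and 3 rose and 2 fell in KO CDAHFD. Of all genes tested, 26.1%, 22% and 26.9% rose in WT CDAHFD, KO chow and KO CDAHFD, and 25%, 17% and 25.4% fell. Fcna, a ficolin of Kupffer cells, was measured at 36.7 to 52.2 CPM in WT chow. KO chow gave 36.1 and 46.5 CPM. On CDAHFD it was at 15.4 to 18.9 CPM in WT mice and at 24, 22.97 and 7.99 CPM in KO mice, and it fell by 1.40 on the log2 scale in WT CDAHFD (SE 0.29, adjusted p = 0.0016, edgeR) and by 1.31 in KO CDAHFD (SE 0.29, adjusted p = 0.00234). Nr1h3, which encodes the Kupffer cell identity factor LXRα and is expressed in hepatocytes as well, fell by 0.56 in WT CDAHFD (SE 0.12, adjusted p = 0.00161) and by 0.57 in KO CDAHFD (SE 0.12, adjusted p = 0.00143). Spic, a factor of haem-handling macrophages, rose by 1.74 in KO chow (SE 0.29, adjusted p = 0.00042), with 6.31 and 9.17 CPM against 1.79 to 3.07 CPM in WT chow. Id3, another identity factor, stood at 0.28, 0.51 and 0.24 in WT CDAHFD, KO chow and KO CDAHFD and did not pass. Siglec1 and Cd207 rose by 1.34 and 1.27 in WT CDAHFD.

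A list of Kupffer cell niche genes held signals and their receptors as well as transcription factors that macrophages themselves express, such as Irf8 and Zeb2, which had the largest rises of the list in WT CDAHFD (2 and 1.77 on the log2 scale). Of 17 tested, 12 rose and 2 fell in WT CDAHFD, 10 rose in KO chow, and 11 rose and 2 fell in KO CDAHFD. The shares of all genes that rose and fell are those given with the other Kupffer cell genes. The ligands of Csf1r were both among the rising genes. Csf1 was measured at 9.04 to 17.7 CPM in WT chow, 31.1 and 35 CPM in KO chow and 34.7 to 39.1 in WT CDAHFD, a rise of 1.58 on the log2 scale (SE 0.18, adjusted p = 1.22e-05, edgeR). Il34 rose by 1.33 (SE 0.29, adjusted p = 0.00197). The genes that fell were Dll4, the endothelial Notch ligand, by 1.45 in WT CDAHFD (SE 0.21, adjusted p = 8.78e-05), and Bmp10, a ligand of stellate cells, by 0.79 (SE 0.30, adjusted p = 0.0428). Dll4 and Bmp10 were at log2 differences of 0.12 and -0.07 in KO chow and did not pass there. Of 9 genes of the sinusoidal endothelium 5 fell and none rose in each CDAHFD group. In KO chow none fell and 1 rose. The log2 differences there ran from -0.69 for Dnase1l3 to 0.85 for Lyve1, with Kdr at -0.26. Whether these genes bear on the resident markers was not tested.

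Of 9 other uptake receptors, 5 rose and 2 fell in WT CDAHFD, 4 rose and 3 fell in KO chow, and 5 rose and 3 fell in KO CDAHFD. Of all genes tested, 26.1%, 22% and 26.9% rose in these comparisons, and 25%, 17% and 25.4% fell. Clec7a, a receptor for fungal glucans, rose by 4.75 on the log2 scale in WT CDAHFD, Cd36, a fatty acid transporter that hepatocytes also make, by 4.21, Axl, a phosphatidylserine-linked receptor kinase, by 2.09 and Msr1, a class A scavenger receptor like Marco, by 1.75. In KO chow they rose by 3.6, 2.7, 1.72 and 1.29. Msr1 therefore rose in both WT CDAHFD and KO chow, while Marco rose in KO chow and gave -0.44 in WT CDAHFD.

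**Figure D5:**
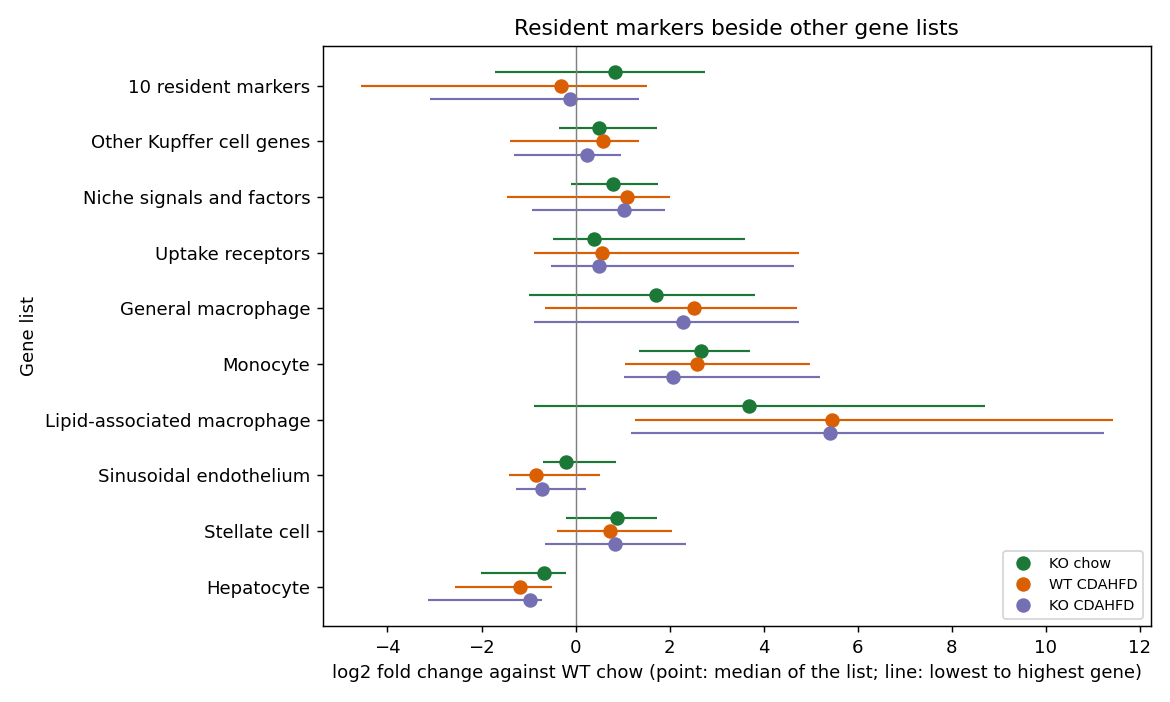
Median log2 fold change against WT chow of the genes tested in each of 10 lists (points) with the lowest and highest gene of the list (lines), for KO chow, WT CDAHFD and KO CDAHFD (x axis, log2). The resident markers span from -4.57 to 1.52 in WT CDAHFD around a median of -0.30, while the lipid-associated macrophage list has a median of 5.45.

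Across the 12 libraries the 10 genes did not vary together as a block. Pearson's r of log2 CPM was highest for Csf1r with Adgre1 (0.935), Timd4 with Cd163 (0.90) and Cd5l with Adgre1 (0.893), and lowest for Cd163 with Csf1r (-0.849) and C6 with Csf1r (-0.777). Vsig4 with Marco gave 0.864 and Clec4f with Folr2 0.815. Of the 13364 genes whose mean reached 1 CPM, those most like Clec4f were Kcna2 (0.922), Sec13 (0.908), Chp2 (0.896), Snd1 (0.894), Gng5 (0.871) and Cops8 (0.87). Kcna2, a potassium channel gene that is also listed among Kupffer cell genes, was measured at 3.58 to 6.47 CPM in WT chow and 4.24 and 9.14 in KO chow, and at 3.03, 3.10 and 0.666 CPM in the 3 KO CDAHFD libraries, again with replicate 3 lowest. Those most like Timd4 were Gsto1 (0.958), Pcolce2 (0.953), Kyat1 (0.949), Ccdc47 (0.945), Cth (0.942) and Pa2g4 (0.939), none of them on a macrophage list used here. The points of these correlations share the 4 groups and their scaling, and they are descriptions over 12 libraries.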

How the data were processed

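The authors prepared poly-A selected, non-directional libraries, checked reads with FastQC 0.11.5, aligned them to GRCm38 with STAR 2.7.3a and deposited read counts per Ensembl gene without normalization. The counting program and annotation are not given in the sources used here. Groups came from the labels, which give 4, 3, 2 and 3 libraries where the study's methods name equal groups. Each library was taken as a separate mouse. Symbols and positions came from GENCODE M21, which held 94.08% of the identifiers and 99.691% of the counts.

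Counts were analysed in R 4.3.3 with edgeR 4.0.16. Genes passing filterByExpr (17358) were scaled with TMM and fitted with 4 group means over the 12 libraries by the quasi-likelihood method, and p-values were adjusted by Benjamini-Hochberg over all genes tested (threshold 0.05). The standard error is the log2 fold change over the square root of F. The members and the gene lists were chosen with earlier results of these data known. All 10 members are named, and from each other list up to 4 genes called in WT CDAHFD against WT chow with the largest changes and a mean of at least 0.5 CPM, plus Csf1, Il34, Nr1h3, Spic, Id3, Trem2, Gpnmb, Cd68, Ccr2 and Ly6c2, while Dll4 and Bmp10 were named after their values were seen. For correlations, log2 CPM took a prior count of 2. Alternatives were other scaling, no filter, DESeq2 1.42.0, fits of only the groups compared, a replicate block, a clock gene covariate and leaving out each library. On simulated data 100% of 4-fold changes were recovered in each tested comparison. Of 2-fold changes, 70%, 40% and 63% were recovered in WT CDAHFD, KO chow and KO CDAHFD against WT chow. For KO CDAHFD against WT CDAHFD it was 62%. The simulated counts had the same spread for every gene, and changes were placed only in genes with many reads. These rates therefore need not hold for members with fewer reads or a wider spread.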

Additional observations from a re-analysis of the deposited data

Results flagged for a closer look

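The genotype difference of Adgre1 pointed opposite ways on the 2 diets without overlap of libraries on either. On chow both KO libraries lay above all WT libraries, with means of 64.8 CPM in KO chow and 25.8 CPM in WT chow, and on CDAHFD all KO libraries lay below all WT libraries, with means of 51.3 CPM in KO CDAHFD and 70.3 CPM in WT CDAHFD. The difference between the diets was not tested, since it holds the contrast by which the members were chosen. The share of all genes with such a pattern was not counted. The difference on CDAHFD alone did not pass (log2 -0.46, SE 0.24, adjusted p = 0.644 by edgeR's quasi-likelihood test and Benjamini-Hochberg adjustment), with all 3 KO libraries lower.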

How the results depend on the processing

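With 2 KO chow libraries and 3 in each CDAHFD group, 2-fold changes were recovered only in part on simulated data, and counts for Timd4 on CDAHFD went down to 12 reads. The number of members called ran from 5 to 7 in WT CDAHFD, 3 to 8 in KO chow (3 without KO chow replicate 2) and 6 to 8 in KO CDAHFD when each library was left out, beside 42.6% to 52.3%, 23.7% to 41% and 45.7% to 51.9% of all genes. Between the CDAHFD groups 1 member was called with every gene with a count kept (0.714% of all genes) and 1 with DESeq2 (1.41%). The median difference from KO chow ran from -0.81 to -0.41 in WT CDAHFD and from -1.14 to -0.50 in KO CDAHFD with a library left out, and was -0.38 in KO CDAHFD without the 4 libraries with over 10 CPM of Dbp, an alternative chosen after seeing the data. The cause was not tested.

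Signs changed for these differences, none of them called as reported. With library size as the only scaling Marco and Folr2 stood at 0.10 and 0.40 in WT CDAHFD, and Clec4f and Folr2 at 0.08 and 0.13 in KO CDAHFD, against WT chow. Without the 4 libraries, Vsig4 and Cd5l stood at 0.23 and 0.07 between the CDAHFD groups. With a library left out, the ranges between the CDAHFD groups were -0.39 to 0.24 for Vsig4, -0.24 to 0.48 for Clec4f and -0.45 to 0.07 for Cd5l. Against WT chow they were -0.29 to 0.08 for Folr2 in WT CDAHFD, and -0.07 to 0.56 for Vsig4 and -0.05 to 1.15 for Marco in KO CDAHFD, where the upper ends, without KO CDAHFD replicate 3, were called (adjusted p = 0.0302 and 0.0262).

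Replicate numbers do not pair the samples: over 15 same-numbered pairs the correlation of deviations ran from -0.242 to 0.266, with 3 over 0.1. With a replicate block 6, 6 and 6 members were called in WT CDAHFD, KO chow and KO CDAHFD, beside 44.9%, 31.3% and 46.3% of all genes. Between the CDAHFD groups 0 members were called, beside 0.34%. Vsig4 was not called in KO chow under the block, Folr2 stood at 0 in KO chow, and Clec4f at -0.04 between the CDAHFD groups.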

Other observations

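Genes of dividing cells and of other cell types were also compared with WT chow, with mixed results. Of all genes tested, 26.1%, 22% and 26.9% rose in WT CDAHFD, KO chow and KO CDAHFD, and 25%, 17% and 25.4% fell. Several of the counts below lie near these shares. All 5 genes of dividing cells rose in each comparison with WT chow, and Mki67 rose by 4.4, 4.39 and 4.29 on the log2 scale in WT CDAHFD, KO chow and KO CDAHFD (SE 0.24, 0.25 and 0.24). Summed neutrophil genes were 2.80 to 13.9 CPM in WT chow, 20.8 and 31.2 CPM in KO chow and 24.04 to 26.9 CPM in WT CDAHFD. Of 7 T and NK cell genes 4, 6 and 6 rose in WT CDAHFD, KO chow and KO CDAHFD, and of 5 dendritic cell genes 3, 4 and 4. No B cell gene of 5 passed the test by edgeR. Of 8 stellate cell genes 4, 5 and 6 rose and 1, 0 and 1 fell. Peritoneal macrophages are another population that carries Timd4. Of 4 genes listed for them and for mesothelium (Gata6, Prg4, Msln and Upk3b), 1 rose in each comparison and none fell. Their sum was 34.9 to 59.5 CPM in WT chow and 53.3 to 62.5 CPM in WT CDAHFD. Most of it was Prg4, at 25.1 to 47.3 and 36.1 to 39.6 CPM, which shares 204 exon bases with Tpr on the other strand. The sum is therefore no measure of peritoneal macrophages alone. The 4 haemoglobin genes all fell in WT CDAHFD, where their sum was 68.8 to 84.4 CPM against 104 to 266 CPM in WT chow. In KO chow 1 rose, with sums of 160.3 and 370.5 CPM, and in KO CDAHFD none passed the test. The part of these cells in the levels of the resident markers was not tested.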
